A study of Mus musculus with 72 samples.

Results

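Kidneys of septic mice infused with mesenchymal stem cells (MSC kidneys, 5 mice) were set against kidneys of septic mice infused with saline (CLP kidneys, 5 mice). These 10 arrays belong to a series of 72 arrays over 5 organs, and the kidneys of 5 sham-operated mice served as the uninjured level. MSC mice underwent CLP, the ligation and perforation of the cecum, and 6 hours later received 250000 cultured stromal cells in 100 µL through a cannula. CLP mice had the same injury and saline, and sham mice had the sham operation and saline. All were C57Bl/6J females, the cells came from male C57Bl/6J mice at passages 8 to 11, and organs were taken at 28 hours. The 10 kidneys were those named MSC or CLP in the title, source name and description. The tissue field of 12 of the 15 kidney entries names another organ. The design text speaks of 4 animals per group, while 5 kidneys per arm are listed.

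The label kidney held in the data. Umod, the uromodulin of the thick ascending limb, lay between 14.83 and 15.54 log2 in all 15 kidneys, and Kap, an androgen-regulated proximal tubule gene, between 12.74 and 13.70. The labels number 15 separate mice, so p-values measure the spread between these mice. Each Illumina array gave 1 log2 intensity per probe. Of 45255 complete probe rows, the 22504 whose columns follow the header were used, and 8817 of these exceeded 6 log2 in at least 5 kidneys and were tested. A companion value table holds the other probes too, 20575 of them tested. In each probe it differs from the main table by 1 constant, so its differences between kidneys can be read while its levels carry an unknown shift. The number of arrays limits the precision.

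In sepsis the kidney often loses function with little cell death. Tubular cells sense bacterial products through Toll-like receptors and turn on NF-kB targets, acute phase genes and injury markers, while transporters and mitochondrial programmes are turned down. Mesenchymal stem cells are connective tissue progenitors studied as a treatment because they release factors that dampen inflammation.

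Only 2 probes passed the test between the arms (limma, Benjamini-Hochberg adjusted p below 0.05), 0.0227% of those tested. Both were actins of smooth muscle, and both were lower in MSC kidneys. Acta2 encodes alpha smooth muscle actin, a protein of vessel walls, pericytes and myofibroblasts, and lies on chromosome 19 (34240336 to 34255585, GRCm38.p6). Actg2 encodes the gamma actin of visceral smooth muscle and lies on chromosome 6 (83512909 to 83536251).

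Acta2 had 9.01, 9.07, 8.44, 8.50 and 9.14 log2 in MSC mice 16, 44, 61, 100 and 101, the order kept for MSC kidneys below. It had 10.13, 10.11, 10.52, 10.07 and 10.01 in CLP mice 24, 34, 35, 37 and 107, also the order kept below. Every MSC kidney lay below every CLP kidney and within or below the 8.77 to 9.46 of the sham kidneys. Acta2 fell by 1.33 ± 0.17 (SE) on the log2 scale, with an adjusted p of 0.00877. CLP kidneys stood 1.09 above sham kidneys (adjusted p = 0.00102). The MSC and sham means differed by -0.24, with an adjusted p of 0.431. These contrasts share arms and are not separate evidence.

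The other Acta2 probes did not show the sham contrast. A second tested probe (ILMN_2710354) gave 7.61, 8.02, 7.63, 8.07 and 8.39 in MSC kidneys, against 8.71, 8.60, 8.70, 8.17 and 9.48 in CLP kidneys. The arms overlapped through MSC mouse 101 and CLP mouse 37. The difference was -0.79 ± 0.20 (SE), adjusted p = 0.0823, and CLP kidneys stood 0.17 from sham kidneys (adjusted p = 0.503). In the value table, ILMN_2693895 and ILMN_2710353 differed by -0.83 and -0.81 between MSC and CLP kidneys (adjusted p = 0.0866 each). All 4 probes were lower in MSC kidneys, but the rise of CLP over sham kidneys was seen with ILMN_2923445 alone.

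The 250 bases before the Acta2 start given in the promoter table, base 34255373, are shown because this gene had the smallest adjusted p. That start lies inside the gene's annotated span, which reaches to 34255585. CArG boxes, the sites that serum response factor binds in smooth muscle genes, are in capitals.
Acta2 promoter, minus strand: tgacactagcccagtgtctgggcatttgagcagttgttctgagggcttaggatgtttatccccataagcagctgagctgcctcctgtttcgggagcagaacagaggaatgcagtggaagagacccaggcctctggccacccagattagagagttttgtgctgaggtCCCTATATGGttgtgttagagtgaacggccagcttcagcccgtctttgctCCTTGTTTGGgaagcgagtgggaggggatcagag
The stretch is chr19:34255374-34255623 of GRCm38.p6, from RefSeq. A box was taken as CC, a core of 6 bases with at least 5 A or T, and GG, which reads as the same pattern on both strands. The boxes CCCTATATGG and CCTTGTTTGG begin 84 and 34 bases before that start. Of 32851 promoter windows of this length, 8.59% held a box and 0.67% held 2 or more. A match describes the letters and does not show binding.

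Actg2 had 6.59, 6.11, 5.49, 4.88 and 5.29 log2 in MSC kidneys. It had 7.02, 7.76, 8.06, 7.01 and 8.45 in CLP kidneys, and 6.22 to 6.77 in sham kidneys. The arms did not overlap, and 3 MSC kidneys lay under the 6 log2 level used as the floor. The fitted difference was -1.99 ± 0.31 (SE), adjusted p = 0.0397. Against the floor the MSC mean was lower by at least 1.66. CLP kidneys exceeded sham kidneys by 1.29 (adjusted p = 0.0056). Without CLP mouse 35, MSC mouse 61, 100 or 101, or any 1 of the 5 sham kidneys, Actg2 missed the threshold, with adjusted p between 0.0618 and 0.178.

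Other smooth muscle genes gave mixed values. In a list of 12 such genes drawn up after these values were seen, 7 were tested. Myh11, the heavy chain of smooth muscle myosin, differed by -0.33 (adjusted p = 0.358). Myl9, a regulatory light chain, differed by 0.00 and was lower in CLP than in sham kidneys by 1.17. Mustn1, a small nuclear protein of muscle and skeletal tissue, had 7.95, 8.20, 7.44, 7.45 and 7.94 in MSC kidneys, against 8.85, 8.44, 8.83, 8.67 and 8.35 in CLP kidneys. Its arms did not overlap, and the difference was -0.83 ± 0.15 (SE), adjusted p = 0.0543. A second Mustn1 probe (ILMN_2797928) differed by -0.57 (adjusted p = 0.0763). Des, the muscle filament desmin, differed by 0.16 (adjusted p = 0.641) and by 0.40 without mouse 107 (adjusted p = 0.0238). Smtn, the smoothelin of contractile muscle, differed by 0.07 (adjusted p = 0.789). So of the 7 tested genes 4 had negative differences, Acta2 and Actg2 among them, and 3 did not. The list median of -0.33 includes both actins and was -0.07 without mouse 107. The summed linear level of the list's measured probes ran from 2503 to 2996 in MSC kidneys. It ran from 3358 to 5036 in CLP kidneys and from 3212 to 3959 in sham kidneys. That sum also includes both actins and weighs bright genes most, so it is not separate evidence.

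**Figure D1:**
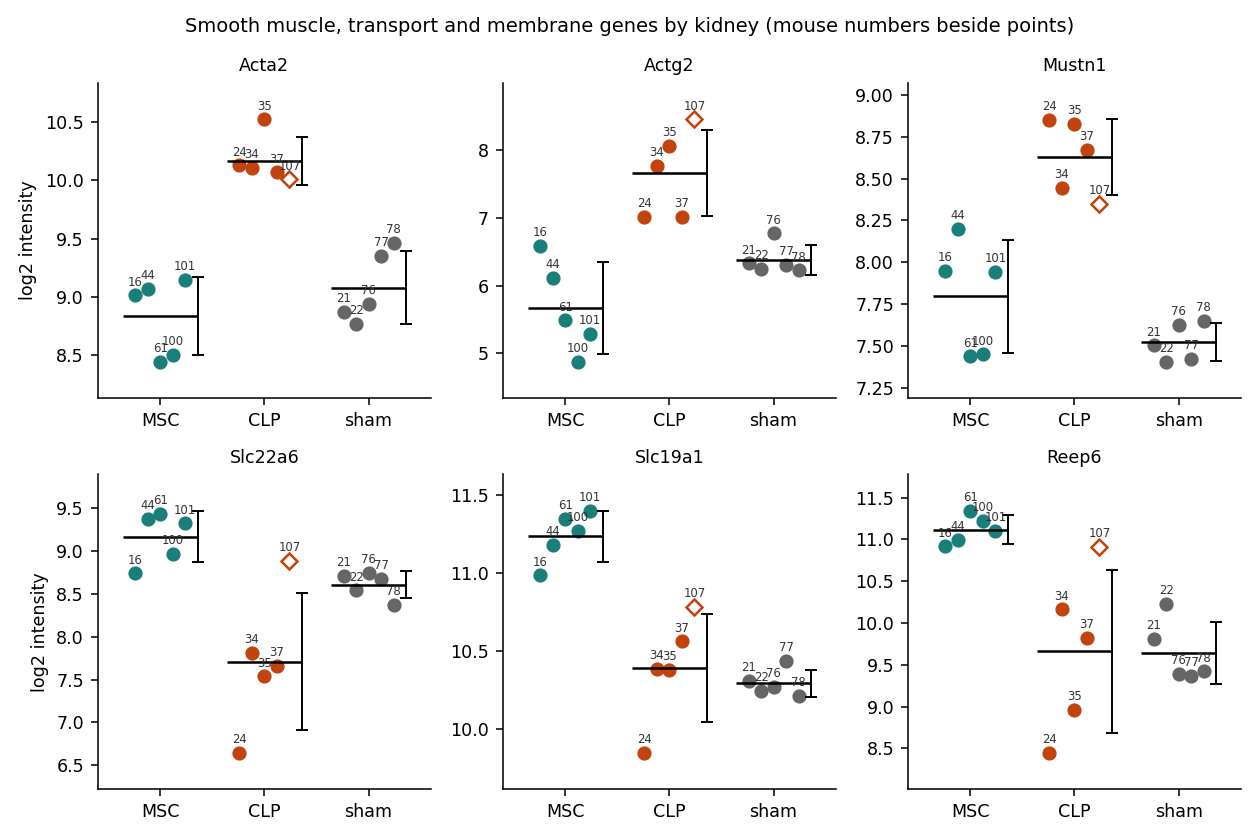
Log2 intensity (vertical axes, which do not start at 0) of 6 genes in each kidney of the MSC, CLP and sham arms, with the mouse number beside each point, the arm mean as a line and its SD as a bar (n = 5). Acta2, Actg2 and Mustn1 were lower and Slc22a6, Slc19a1 and Reep6 higher in MSC than in CLP kidneys, except that MSC mouse 16 had 8.74 for Slc22a6, below the 8.89 of CLP mouse 107 (open diamond).

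Of 20575 probes tested in the value table, 3 passed (0.0146%): the same Acta2 and Actg2 probes and a probe of Col27a1. Col27a1 encodes a fibrillar collagen best known from cartilage and lies on chromosome 4 (63214009 to 63334991). On that table's shifted scale the probe (ILMN_2687324) had 8.55, 8.43, 9.03, 8.38 and 8.61 in MSC kidneys, against 6.72, 6.81, 5.94, 6.15 and 7.98 in CLP kidneys. All MSC kidneys lay above all CLP kidneys, and the difference was 1.88 ± 0.29 (SE), adjusted p = 0.0493. Another Col27a1 probe (ILMN_1222523), in the main table, differed by 0.28 (adjusted p = 0.229).

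Far more probes came near the threshold than passed it. At an unadjusted p below 0.05 there were 2393 probes, 27.1% of those tested, and the smallest adjusted p after the actins was 0.0543. The count turned on the kidney of CLP mouse 107. Without it, MSC and CLP kidneys differed at 3036 of the same 8817 probes, 1501 higher in MSC kidneys (17%) and 1535 lower (17.4%). In the value table the same step gave 14.2% higher and 14.4% lower. Leaving out any other single kidney gave between 1 and 12 probes. The labels give no reason to leave mouse 107 out, so the comparison with all 5 CLP kidneys is the result and the other is given beside it. Mouse 107 was singled out by these same values. Counts and adjusted p-values without it, here and below, describe the data and are not separate evidence.

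The same kidney decided how many probes had arms that did not overlap. MSC kidneys all lay above all 5 CLP kidneys at 78 probes (0.885%) and all below at 78 (0.885%). Against the other 4 CLP kidneys the counts were 855 (9.7%) and 820 (9.3%). The kidney of mouse 107 was not like a sham kidney throughout. For Saa3, an acute phase protein made in injured tissue, it had 13.78, against 6.17 to 8.03 in sham kidneys. For Hmox1, the heme-degrading enzyme induced by oxidative stress, it had 8.05, against 11.89 to 12.75 in the other CLP kidneys and 7.04 to 7.27 in sham kidneys.

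**Figure D2:**
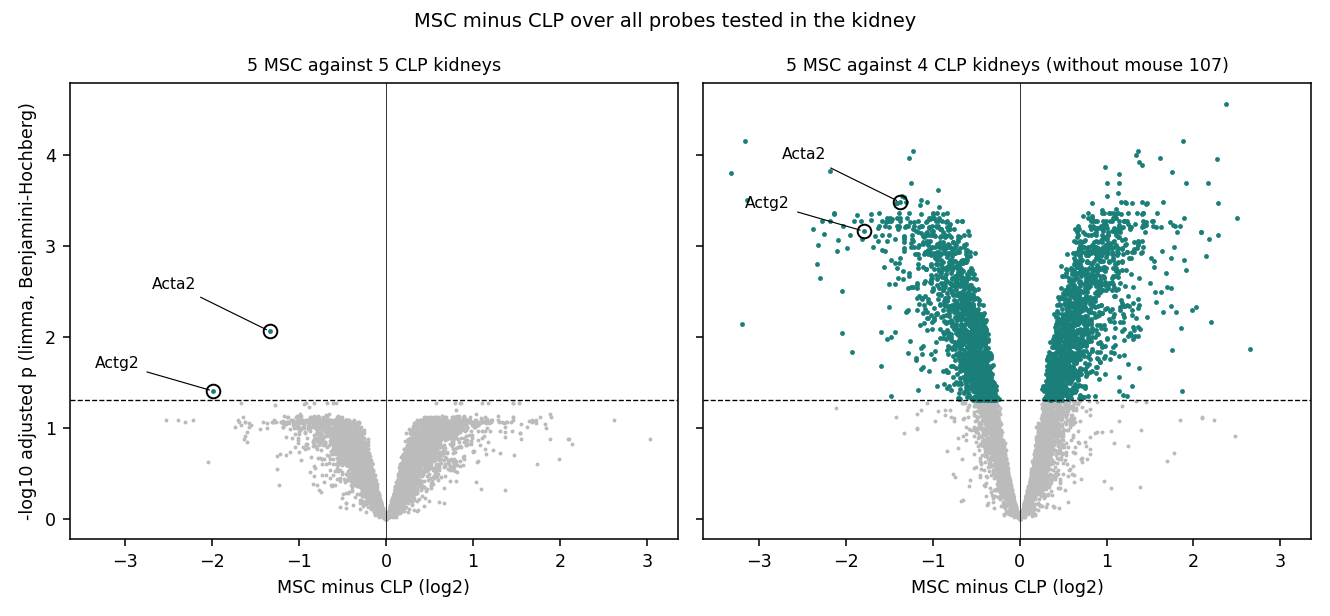
MSC minus CLP (log2, horizontal axis) against -log10 of the adjusted p (vertical axis) for 8817 probes, with 5 CLP kidneys on the left and without mouse 107 on the right. Coloured points pass the dashed threshold: 2 probes on the left, Acta2 and Actg2 (ringed), and 3036 on the right.

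The CLP kidneys differed from sham kidneys at 20.4% of probes upward and 20.7% downward, and in the value table at 16.9% and 17%. The MSC kidneys differed from sham kidneys at 3.28% upward and 3.27% downward. The arms in these contrasts overlap, and the difference between the counts was not tested.

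Injury genes of the tubule were lower in MSC than in CLP kidneys in 7 of 8 tested, without passing the test. Of 20 genes in that list, 8 were tested; 7 were higher in CLP than in sham kidneys (20.4% of all probes were) and none passed between MSC and CLP kidneys. The median MSC minus CLP difference was -1.24 over these 8 genes. Without mouse 107 it was -2.01, and 5 genes passed, all lower, against 17.4% of all probes lower in that fit. Hmox1 had 10.77, 9.28, 9.05, 7.80 and 8.23 in MSC kidneys, against 11.97, 11.89, 12.04, 12.75 and 8.05 in CLP kidneys. Only mouse 107 joined the MSC range; the difference was -2.31 ± 0.70 (SE), adjusted p = 0.087, and -3.13 without it (adjusted p = 0.000318).

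Atf3, a stress-induced transcription factor, had 8.07, 5.74, 6.80, 5.82 and 5.45 in MSC kidneys, against 7.93, 8.06, 9.86, 8.96 and 5.22 in CLP kidneys. MSC mouse 16 reached the CLP range and CLP mouse 107 the sham range, and the difference was -1.63 (adjusted p = 0.134). Cdkn1a, the cell cycle inhibitor p21, had 9.02 to 11.10 in MSC kidneys, 8.22 to 12.59 in CLP kidneys and 6.51 to 7.40 in sham kidneys. Havcr1, which encodes kidney injury molecule 1, had 12.26, 9.10, 10.90, 7.27 and 8.25 in MSC kidneys. It had 13.85, 10.65, 11.30, 10.86 and 7.29 in CLP kidneys, so both arms ran from near the sham range of 5.73 to 7.25 to several units above it. Its difference was -1.23 (adjusted p = 0.426), and it missed the threshold without mouse 107 as well (adjusted p = 0.0604). Krt20, a keratin of urothelium that is outside the list, ran from 7.17 to 12.61 in MSC kidneys and from 7.08 to 13.66 in CLP kidneys. Vcam1, an adhesion molecule of endothelium, was the 1 gene of the list with a positive difference, 0.49 (adjusted p = 0.172). In the value table Sox9, a regulator of tubule repair, differed by -2.36 (adjusted p = 0.112) and by -3.27 without mouse 107 (adjusted p = 0.000545).

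Acute phase genes had overlapping values in both septic arms. Saa3 had 13.22, 14.05, 12.96, 12.17 and 13.69 in MSC kidneys, against 14.13, 12.20, 12.50, 13.10 and 13.78 in CLP kidneys and 6.17 to 8.03 in sham kidneys. The ranges coincided almost fully, and the difference was 0.08 ± 0.45 (SE), adjusted p = 0.922. Fpr2, a formyl peptide receptor that also binds serum amyloid and is outside the list, had 9.47 to 10.73 in MSC kidneys, 10.03 to 11.54 in CLP kidneys and 5.08 to 6.04 in sham kidneys. Of 16 acute phase genes, 9 were tested, with a median MSC minus CLP difference of 0.08, and 0.02 without mouse 107. Of these 9, 6 were higher in CLP than in sham kidneys, against 20.4% of all probes. A further 5 genes were tested only with the value table, 4 with negative differences and 1 positive. Their median was -0.55 and none passed the threshold. Without mouse 107 their median was -0.78, and 1 passed as lower, against 14.4% of all probes there. Cp, ceruloplasmin, was the only one of the 9 to pass without mouse 107, by -1.11 (adjusted p = 0.00552), against 17.4% of all probes lower in that fit. Fga, a fibrinogen chain, had 12.30 to 14.85 in MSC kidneys and 12.30 to 15.83 in CLP kidneys. Hpx, hemopexin, ran from 8.93 to 11.56 in MSC kidneys and from 6.04 to 10.91 in CLP kidneys. The liver also makes these proteins. The summed level of 3 liver probes ran from 6761 to 30560 in MSC kidneys, from 6023 to 58747 in CLP kidneys and from 1511 to 68582 in sham kidneys. That sum includes Fga, itself 1 of the acute phase genes, so it is not a separate measure of liver RNA. The part of the liver in the acute phase values was not tested.

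Of 28 listed Toll-like receptor and NF-kB genes, 15 were tested, 14 of them lower in MSC than in CLP kidneys, with a median of -0.44 and none past the threshold. Without mouse 107 the median was -0.65 and 10 of the 15 passed, all lower, against 17.4% of all probes. Of the 15, 12 were higher in CLP than in sham kidneys, against 20.4% of all probes. Myd88, the adaptor shared by most Toll-like receptors, had 11.32, 11.09, 11.04, 10.66 and 10.71 in MSC kidneys. It had 12.25, 11.71, 11.81, 11.83 and 10.79 in CLP kidneys, so only mouse 107 fell into the MSC range. The difference was -0.72 ± 0.21 (SE), adjusted p = 0.0868, and -0.94 without mouse 107 (adjusted p = 0.00054).

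Map3k8, the kinase that links Toll-like receptors to ERK, differed by -1.05 (adjusted p = 0.0868). Socs3, the feedback inhibitor of cytokine receptors, had 10.53, 9.32, 8.97, 9.19 and 8.97 in MSC kidneys, against 11.72, 10.89, 11.49, 12.02 and 8.60 in CLP kidneys and 6.43 to 7.47 in sham kidneys. All 5 MSC kidneys lay above every sham kidney and below 4 of 5 CLP kidneys. Nfkbib, an inhibitor of NF-kB outside the tested list, had 6.16 to 6.69 in MSC kidneys and 6.83 to 8.52 in CLP kidneys. Its arms did not overlap (difference -1.18, adjusted p = 0.0739). Rela, the p65 subunit, differed by -0.82 (adjusted p = 0.155) and Nfkbia, the main NF-kB inhibitor, by -0.79 (adjusted p = 0.131). Irak1, a kinase bound to Myd88, was the exception at 0.13.

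Of 27 listed cytokines and chemokines, 9 were tested, 4 with positive and 5 with negative differences and none past the threshold. Their median was -0.03, and -0.20 without mouse 107. Cxcl1, which attracts neutrophils, had 11.54, 10.48, 9.60, 11.45 and 10.58 in MSC kidneys, against 14.07, 12.03, 12.68, 13.33 and 9.54 in CLP kidneys. Its sham values were 6.58 to 8.66, and the MSC minus CLP difference was -1.60 (adjusted p = 0.145; -2.30 without mouse 107, adjusted p = 0.00229). Cxcl2, a related neutrophil chemokine, differed by -1.63 (adjusted p = 0.123), and Il1rn, the interleukin 1 receptor antagonist, by -0.52 (adjusted p = 0.238). Among the positive ones, Cx3cl1, the membrane-bound chemokine fractalkine, differed by 0.20 (adjusted p = 0.491). Ccl11, eotaxin, which is outside the list, had 6.41, 6.46, 5.91, 6.54 and 6.56 in MSC kidneys, against 7.67, 6.69, 7.87, 8.00 and 7.32 in CLP kidneys. Its arms did not overlap (difference -1.13, adjusted p = 0.0763), while CLP and sham kidneys differed by 0.43 (adjusted p = 0.185). Of the 9 listed genes, 4 were higher in CLP than in sham kidneys, against 20.4% of all probes. Of the 16 in the value table, 8 were, against 16.9% of all probes there.

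Neutrophil markers rose in CLP over sham kidneys at all 5 genes tested of 17, against 20.4% of all probes. The mean over these 5 genes was 5.31 to 5.55 log2 in sham kidneys, under the floor. Genes that low in sham kidneys could be tested only where septic kidneys exceeded the floor, so the filter favoured such a rise. Of 13 neutrophil probes measured, 6 exceeded the floor in any kidney. The MSC minus CLP differences of the 5 genes were all negative, with a median of -0.18, and none passed. Without mouse 107 the median was -0.40 and 2 of the 5 passed as lower, against 17.4% of all probes. Ngp, a granule protein, had 6.12 to 7.25 in MSC kidneys, 6.65 to 7.91 in CLP kidneys and 5.01 to 5.25 in sham kidneys. Of 4 macrophage genes tested, 3 had positive differences, with a median of 0.62 and none past the threshold. Lyz1, a lysozyme, had 11.02, 13.04, 11.79, 12.61 and 12.67 in MSC kidneys, against 10.34, 10.17, 9.76, 10.28 and 12.36 in CLP kidneys. Mouse 107 was the only CLP kidney within the MSC range; the difference was 1.64 (adjusted p = 0.084). Adgre1, an adhesion receptor of macrophages, had 5.46 to 6.56 in MSC kidneys and 4.90 to 6.29 in CLP kidneys, levels around the floor. C1qa, a complement component made by macrophages, differed by 0.41 (adjusted p = 0.195). Without mouse 107, 3 of the 4 passed as higher, against 17% of all probes. The summed linear level of all measured markers of that set ran from 2647 to 9573 in MSC kidneys, from 1364 to 6084 in CLP kidneys and from 2286 to 4834 in sham kidneys. A linear sum weighs bright genes such as Lyz1 most, so it is not independent of the Lyz1 values above. In whole kidney, fewer cells of a type and less RNA per cell cannot be told apart.

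Interferon genes were lower in MSC kidneys in 9 of 12 tested, with a median of -0.26 and none past the threshold. Gbp3, a guanylate-binding protein, had 8.79, 9.08, 9.08, 9.18 and 9.62 in MSC kidneys, against 10.13, 9.99, 10.41, 10.03 and 9.35 in CLP kidneys. Only mouse 107 fell within the MSC range, and the difference was -0.83 (adjusted p = 0.0739). Rsad2, the antiviral protein viperin, differed by -0.97 (adjusted p = 0.0823) and was not raised in CLP over sham kidneys (-0.48, adjusted p = 0.114). Irgm1, an immunity-related GTPase, differed by -0.50 (adjusted p = 0.0823).

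**Figure D3:**
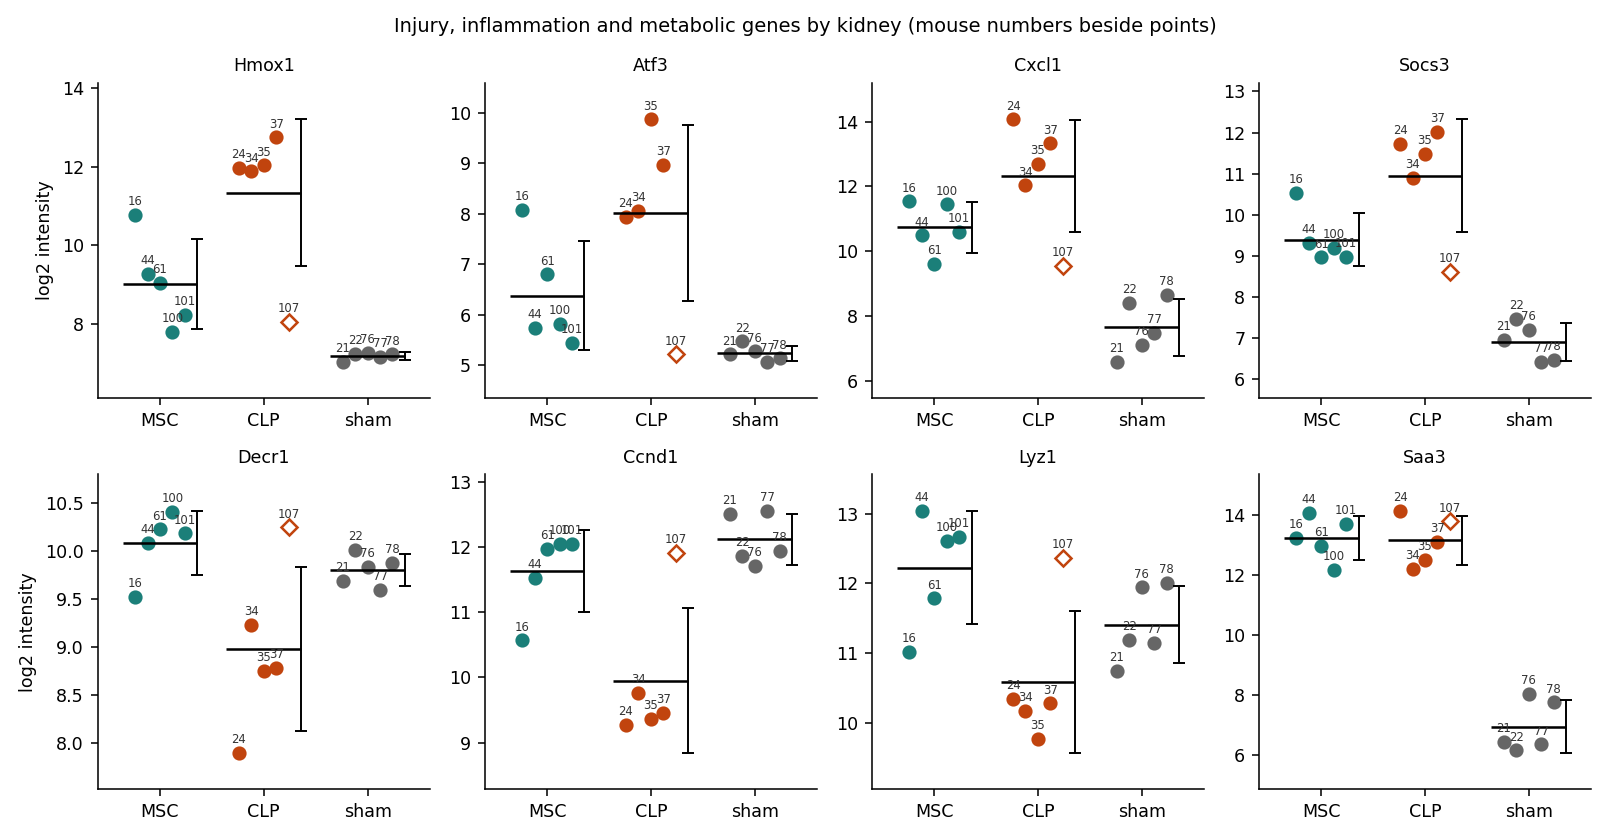
Log2 intensity (vertical axes, which do not start at 0) of 8 genes in each kidney of the MSC, CLP and sham arms, with mouse numbers, arm means and SD bars (n = 5). For Hmox1, Socs3 and Ccnd1, CLP mouse 107 (open diamond) sits apart from the other 4 CLP kidneys, while for Saa3 both septic arms lie between 12.17 and 14.13, above all sham kidneys.

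Proximal tubule genes were lower in CLP than in sham kidneys. Of 26 markers, 15 were tested, 12 of them lower in CLP than in sham kidneys and none higher. Of all probes, 20.7% were lower and 20.4% higher. MSC minus CLP had a median of 0.33, with 10 positive and none past the threshold. Without mouse 107 the median was 0.50, and 4 passed as higher and 2 as lower, shares near those of all probes in that fit (17% and 17.4%). Slc22a6, the organic anion transporter OAT1, had 8.74, 9.38, 9.44, 8.97 and 9.33 in MSC kidneys. It had 6.64, 7.81, 7.54, 7.66 and 8.89 in CLP kidneys and 8.37 to 8.75 in sham kidneys. MSC mouse 16 and CLP mouse 107 crossed by a small amount, and the difference was 1.46 ± 0.28 (SE), adjusted p = 0.0543. Slc5a12, a lactate transporter, had 9.20, 10.84, 10.54, 12.72 and 11.27 in MSC kidneys, against 7.02, 9.18, 9.13, 9.54 and 12.33 in CLP kidneys and 12.06 to 12.67 in sham kidneys. Its difference was 1.47 (adjusted p = 0.2).

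Not every transporter took that direction. Slc9a3, the sodium-proton exchanger NHE3, had 9.56 to 10.46 in MSC kidneys and 9.79 to 11.56 in CLP kidneys (difference -0.89, adjusted p = 0.0868). Slc6a19, a neutral amino acid transporter, had at most 10.64 in MSC kidneys, with a median of 10.34, against 10.52 to 11.06 in CLP kidneys and 11.44 to 11.76 in sham kidneys. It was lower in CLP than in sham kidneys by 0.82, and MSC minus CLP was -0.46 (adjusted p = 0.0868). Vil1, the brush border protein villin, had 10.64 to 11.21 in MSC kidneys and 9.09 to 10.62 in CLP kidneys without overlap (difference 1.14, adjusted p = 0.0763). Nat8f1, an acetyltransferase family gene among the largest falls of CLP against sham kidneys, had 8.88 to 12.56 in MSC kidneys and 8.48 to 12.61 in CLP kidneys.

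Segments beyond the proximal tubule gave single genes. Slc4a1, the anion exchanger of intercalated cells and red cells, had 7.71, 9.37, 10.10, 10.49 and 9.69 in MSC kidneys, against 6.71, 7.82, 7.39, 7.41 and 10.34 in CLP kidneys and 10.44 to 11.23 in sham kidneys. Its difference was 1.54 (adjusted p = 0.115). Trpm6, the distal magnesium channel, had 7.58 to 8.68 in MSC kidneys and 7.98 to 9.78 in CLP kidneys (adjusted p = 0.0823), and Wnk1, a kinase that controls salt transport, differed by 0.57 (adjusted p = 0.0962). Sostdc1, a BMP and Wnt antagonist of the distal tubule, had 8.52 to 10.42 in MSC kidneys, 6.93 to 10.72 in CLP kidneys and 10.50 to 11.37 in sham kidneys. In the value table Hsd11b2, which inactivates glucocorticoids in the collecting duct, had 8.46 to 9.26 in MSC kidneys and 6.25 to 8.53 in CLP kidneys on the shifted scale (adjusted p = 0.0894). Ptpro, a podocyte phosphatase, differed by 0.52 (adjusted p = 0.104).

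Among fatty acid oxidation genes and PPAR alpha targets, 15 of 26 were tested and 13 were higher in MSC kidneys, with a median of 0.26 and none past the threshold. Decr1, an enzyme that handles unsaturated fatty acids, had 9.52, 10.08, 10.23, 10.41 and 10.18 in MSC kidneys. It had 7.90, 9.23, 8.75, 8.79 and 10.25 in CLP kidneys, again with mouse 107 alone inside the MSC range. The difference was 1.10 ± 0.30 (SE), adjusted p = 0.0839. Eci1, an enoyl-CoA isomerase, differed by 1.01 (adjusted p = 0.0868), and Ppargc1a, the coactivator that drives mitochondrial genes, by 0.85 (adjusted p = 0.0903). Pdk4, a starvation-induced kinase of the same list, went the other way at -0.63 (adjusted p = 0.432). Oxidative phosphorylation subunits had positive differences at 10 of 11 tested genes, with a median of 0.09. Without mouse 107 all 11 were positive, with a median of 0.16, and none passed in either fit. Of these 11, 4 were lower in CLP than in sham kidneys, against 20.7% of all probes.

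Cell cycle genes were mixed, with a median of -0.15 over 9 tested of 20. Ccnd1, cyclin D1, had 10.57, 11.53, 11.97, 12.05 and 12.04 in MSC kidneys. It had 9.27, 9.76, 9.36, 9.46 and 11.91 in CLP kidneys and 11.70 to 12.55 in sham kidneys, so 4 CLP kidneys lay below every MSC kidney. The difference was 1.68 ± 0.43 (SE), adjusted p = 0.0823, and 2.17 without mouse 107 (adjusted p = 0.000206). Tyms, thymidylate synthase, differed by 0.83 (adjusted p = 0.0814) and Mcm2, a replication licensing factor, by 0.32 (adjusted p = 0.0894). Of 10 p53 and cell death genes tested, 8 were lower in MSC kidneys, with a median of -0.40. Casp4, the caspase that senses intracellular endotoxin, differed by -0.82 (adjusted p = 0.0868), Tnfrsf1a, a TNF receptor, by -0.54 (adjusted p = 0.122) and Ccng1, cyclin G1, by 0.54 (adjusted p = 0.0823).

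Endothelial activation genes had a median of -0.47 over 8 tested of 16. Angpt2, which destabilises vessels by blocking the Tek receptor, had 8.43, 8.58, 8.69, 8.49 and 8.35 in MSC kidneys, against 9.03, 9.40, 9.25, 8.83 and 9.28 in CLP kidneys. Its arms did not overlap and mouse 107 stood with the other CLP kidneys (difference -0.65 ± 0.14 SE, adjusted p = 0.0714). Its sham values, 9.20 to 9.80, lay mostly above both. Tek itself was 9.30 at lowest in MSC kidneys, against 8.32, 8.84, 8.30, 8.51 and 10.08 in CLP kidneys (difference 0.83, adjusted p = 0.0894). Nos3, the endothelial nitric oxide synthase, differed by -0.69 (adjusted p = 0.0823) and Thbd, thrombomodulin, by -0.56 (adjusted p = 0.177). Matrix genes had a median of -0.08 over 12 tested, and -0.17 without mouse 107. Besides Acta2 they included Tnc, tenascin C, at -0.73 (adjusted p = 0.154) and Timp3, a protease inhibitor, at 0.28 (adjusted p = 0.186).

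Stress programmes showed small medians in the main table. The median was 0.04 for 11 hypoxia and glycolysis genes, -0.12 for 7 antioxidant and metallothionein genes and -0.08 for 12 unfolded protein and amino acid stress genes. It was -0.23 for 14 glucocorticoid and clock genes and 0.09 for 9 complement and coagulation genes. For further members in the value table, medians in the same order were 0.04 (5 genes), -0.05 (12), -0.22 (8), -0.32 (4) and -0.48 (6). Of the last 6 genes, 5 were negative. None of these genes passed the threshold. Without mouse 107 the main-table median was 0.21 for complement and coagulation genes, -0.16 for unfolded protein and amino acid stress genes and 0.07 for hypoxia and glycolysis genes. The 6 complement and coagulation genes of the value table then had a median of -0.53. Of these, 3 passed as lower, against 14.4% of all probes there. Tpi1, a glycolytic enzyme, differed by 0.60 (adjusted p = 0.0823), Dnajb9, a chaperone of the endoplasmic reticulum, by -0.76 (adjusted p = 0.0823) and Ciart, a circadian repressor, by -0.63 (adjusted p = 0.0868). Nr1d1, the clock repressor REV-ERB alpha, had 5.61 to 5.90 in MSC kidneys, all under the floor, against 5.85 to 7.93 in CLP kidneys.

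**Figure D4:**
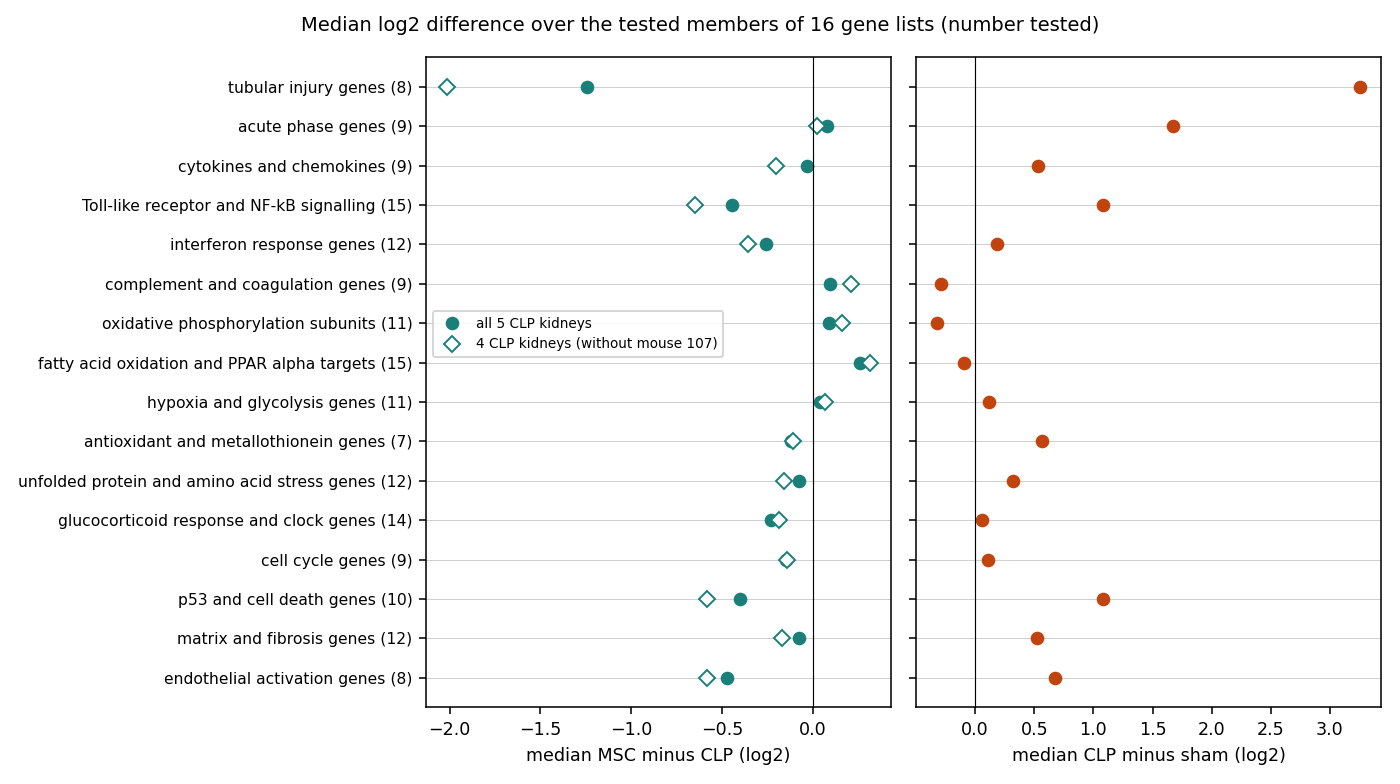
Median log2 difference over the members of 16 gene lists tested in the main table (number tested in brackets). The left panel shows MSC minus CLP with all 5 CLP kidneys (filled) and without mouse 107 (open), and the right panel CLP minus sham. Tubular injury genes lie farthest from 0, at -1.24 and -2.01, against 0.0045 over all probes tested.

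Transcripts typical of other tissues varied between kidneys. The steroid-producing enzymes of the adrenal cortex, a gland that lies on the kidney, stood far above the rest in MSC mice 16, 61 and 101. Cyp11b1 had 11.40, 5.46, 11.96, 5.46 and 12.71 in MSC kidneys, against 5.16, 4.90, 5.13, 8.84 and 5.31 in CLP kidneys and 4.70 to 5.28 in sham kidneys. Cyp21a1 had 9.30, 4.59, 10.52, 5.12 and 11.03 in MSC kidneys, against 4.64, 4.19, 3.92, 7.39 and 4.07 in CLP kidneys. Of 9 probes for 7 adrenal genes, 7 exceeded the floor in at least 1 kidney. Their summed linear level ran from 372 to 10959 in MSC kidneys, from 333 to 1172 in CLP kidneys and from 323 to 343 in sham kidneys.

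Sdc3 and Fxyd6, whose arms did not overlap, moved with these 3 kidneys. Sdc3, a cell surface proteoglycan, had 8.77, 8.34, 9.30, 7.77 and 9.78 in MSC kidneys, against 7.10, 7.04, 7.15, 7.70 and 7.66 in CLP kidneys. Fxyd6, a modulator of the sodium pump, had 10.18, 9.34, 10.82, 9.28 and 11.32 in MSC kidneys, against 8.31, 8.99, 8.15, 9.02 and 9.18 in CLP kidneys. For both, mice 16, 61 and 101 were the highest. Without these 3 kidneys the Sdc3 difference was 0.73 (adjusted p = 0.281), against 1.46 (adjusted p = 0.0543) with them. That of Fxyd6 was 0.58 (adjusted p = 0.302), against 1.46 (adjusted p = 0.077). Acta2 then differed by -1.38 (adjusted p = 0.0534) and Actg2 by -2.16 (adjusted p = 0.114), with 2 MSC kidneys left.

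Fat and liver genes also varied. Adipoq, the adipocyte hormone adiponectin, had 8.09, 8.79, 8.00, 8.82 and 8.74 in MSC kidneys, against 10.37, 8.95, 9.71, 10.64 and 10.99 in CLP kidneys and 10.30 to 12.16 in sham kidneys. Its arms did not overlap (difference -1.64, adjusted p = 0.0763), and the summed adipose markers ran from 392 to 645 in MSC kidneys, from 640 to 2326 in CLP kidneys and from 1376 to 4951 in sham kidneys. Sham mouse 78 had 15.32 for Apoa2, a liver apolipoprotein, against 9.05 to 10.74 in the other sham kidneys. Uroplakin Upk2, a protein of the urinary lining, had 5.76 to 6.48 in MSC kidneys, against 6.66 to 7.52 in CLP kidneys and 7.18 to 8.15 in sham kidneys (MSC minus CLP -0.87, adjusted p = 0.0763). It is 1 of 8 tested genes of a urothelial list of 12 drawn up after these values were seen, 3 with positive and 5 with negative differences. The summed level of that list ran from 1553 to 7915 in MSC kidneys, from 2112 to 14828 in CLP kidneys and from 1813 to 2136 in sham kidneys. Its order of CLP and sham kidneys was thus not that of Upk2. The sum includes Krt20, described above with the tubular injury genes, and a linear sum weighs bright genes most. The part of these markers in the results above was not tested, beyond the fits without the kidneys named.

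**Figure D5:**
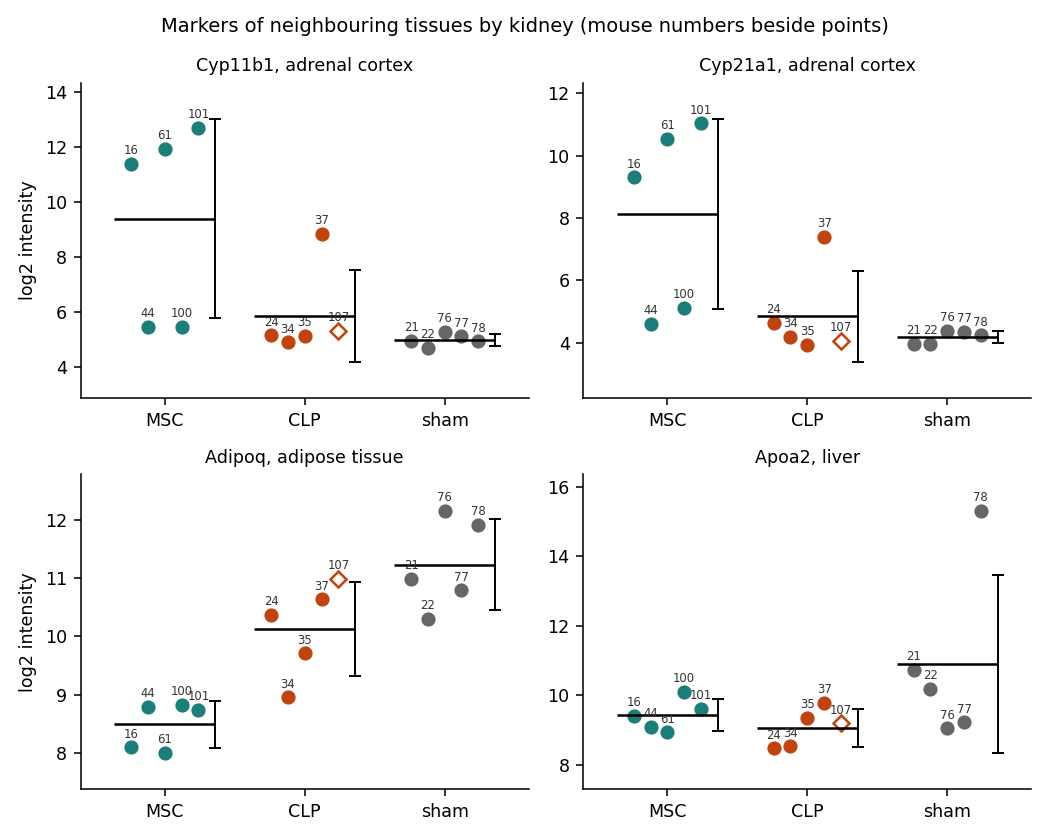
Log2 intensity (vertical axes, which do not start at 0) of markers of adrenal cortex, adipose tissue and liver in each kidney, with mouse numbers, arm means and SD bars (n = 5). MSC mice 16, 61 and 101 reach 11.40 to 12.71 for Cyp11b1, CLP mouse 37 reaches 8.84, and sham mouse 78 reaches 15.32 for Apoa2.

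The infused cells were male and the hosts female. Of the Y-linked markers, Uty had 4 probes in the main table, and 1 was tested. It had 5.97, 6.23, 5.86, 6.37 and 6.12 in MSC kidneys, against 5.94, 6.19, 6.01, 6.00 and 5.62 in CLP kidneys and 5.78 to 6.26 in sham kidneys, all near the floor. The fitted difference was 0.16 (adjusted p = 0.452). A probe near the floor that read alike in female sham kidneys cannot show whether male transcripts were present. Eif2s3y and Kdm5d did not pass the cut of 6 log2 in the value table and were not tested. Levels there carry an unknown shift, so that cut cannot show whether these transcripts were present either. Ddx3y had no named probe. Markers of cultured stromal cells gave a median of 0.16 over 3 tested, with Pdgfra, a growth factor receptor of fibroblasts, at 9.01 to 9.44 in MSC kidneys and 8.83 to 9.45 in CLP kidneys.

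Several other genes had arms that did not overlap without passing the threshold. Reep6, an endoplasmic reticulum shaping protein, had 10.92, 10.99, 11.34, 11.22 and 11.10 in MSC kidneys, against 8.44, 10.16, 8.96, 9.82 and 10.91 in CLP kidneys (difference 1.46, adjusted p = 0.0763). Both probes of Pex6, a peroxisome assembly factor, differed by 0.82 and 0.81 (adjusted p = 0.0763 and 0.0791). Sh3tc2, an endosomal recycling protein, differed by 1.09, Cbfa2t3, a transcriptional corepressor, by 0.84 and Ints3, an Integrator subunit, by 0.83. On the lower side were Tpm3, a tropomyosin, at -1.28 (adjusted p = 0.0567), Msn, the cytoskeletal linker moesin, and Sdcbp2, a PDZ protein. The MSC means of Msn and Sdcbp2 were under the floor, so they were lower by at least 0.51 (adjusted p = 0.0543) and 0.95 (adjusted p = 0.0763). Tpm3 had 6.09 to 6.71 in MSC kidneys, 6.84 to 8.53 in CLP kidneys and 5.74 to 6.38 in sham kidneys.

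To ask whether the kidney differed from other organs of the same mice, each mouse's kidney value minus its mean over liver, lung and heart was compared between MSC and CLP mice. At 12 of 8817 probes (0.136%) the kidney difference departed from that of the other organs, 6 upward and 6 downward. The count turned on single kidneys. Leaving out 1 kidney gave 3 or fewer probes in 11 of 15 cases, and with only MSC and CLP mice in the fit none passed (limma; 1210 at an unadjusted p below 0.05). Without mouse 107 the share was 11.3%, and all 12 probes passed again. Slc19a1, the reduced folate carrier on chromosome 10 (77032269 to 77050432), had the smallest adjusted p. It had 10.98, 11.18, 11.35, 11.27 and 11.39 in MSC kidneys, against 9.84, 10.38, 10.38, 10.56 and 10.78 in CLP kidneys. No MSC kidney fell into the CLP range, and its MSC minus CLP difference was 0.85 in kidney, -1.06 in liver, -0.13 in lung and -0.86 in heart. The kidney effect exceeded that mean by 1.53 ± 0.20 (SE), adjusted p = 0.00697.

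Celf2, an RNA-binding splicing regulator, had 7.42 to 7.56 in MSC kidneys and 7.84 to 8.37 in CLP kidneys. Its kidney effect minus that of the other organs was -0.70 (adjusted p = 0.0411). Ccng2, cyclin G2, departed by -1.15, Pkig, an inhibitor of protein kinase A, by -1.11, and Vsig2, a membrane protein of epithelia, by -1.06. Upward departures were seen for Ddah1, which degrades the nitric oxide synthase inhibitor dimethylarginine, at 0.88, Scly, a selenium-recycling lyase, at 0.68, Kat2a, a histone acetyltransferase, at 0.57, and Gimap5, a lymphocyte GTPase, at 0.79. For Gimap5 the kidney difference itself was -0.15 and those of liver, lung and heart were -0.96, -1.03 and -0.85. For Kat2a the kidney difference was 0.28 (adjusted p = 0.114), and those of liver, lung and heart were -0.55, -0.17 and -0.17. The other 3 of the 12 probes have no gene name here.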

How the data were processed

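RNA was extracted with Trizol and made into biotinylated cRNA for Illumina arrays, per the labels' protocols. The deposited values were taken as log2 intensities from their range of 0.0144 to 16.03; no source used here gives the authors' background correction or normalization. Rows whose values stand under other headings than their own, 50.3% of complete rows, were left out. The deposited value table, whose log2 differences between kidneys match within rounding, was an alternative; its column medians lie between 5.64 and 5.73, and its centring and scale of levels stay unknown. In total 1 column could not be matched to 1 sample and was not used. Gene names came from the platform annotation: 17370 of the rows used have 1 gene, 7 have several and 5127 have none.

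The 15 kidneys were fitted with limma 3.58.1 in R 4.3.3 (lmFit, eBayes) with 3 arms and no covariates, over probes above 6 log2 in at least 5 kidneys, and p-values were adjusted by Benjamini-Hochberg over all probes tested. Kidney values minus the mean over liver, lung and heart of the same mouse were fitted likewise. Where an arm's mean was under 6 log2, the difference is a bound against 6. Each list used 1 probe per gene, the one with the highest mean. List counts and medians cover genes tested in the main table, except where the value table is named.

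Genes named are those past the threshold, the 10 largest differences each way without overlap of the arms at an unadjusted p below 0.01, up to 3 genes per list by p, the 6 largest CLP minus sham differences each way, and the best probes against other organs. Other genes were chosen after their values were seen, as were the smooth muscle and urothelium lists. The members and lists were chosen with earlier results of these data known. Alternatives were another set of samples, array weights, eBayes settings, filters, scaling, the value table and leaving out kidneys.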

Additional observations from a re-analysis of the deposited data

Results flagged for a closer look

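In the genes named, 25 of 306 arms of 5 kidneys (8.17%) held a kidney far from the other 4. Chance gives about 1 in 20 for independent arms, but these arms come from the same 15 kidneys and some of the genes were named because their arms did not overlap, so the shares are not set against each other. CLP mouse 107 was that kidney 10 times. It had 8.05 log2 for Hmox1, below the other CLP kidneys. It lay above them with 7.24 for Tyms, 11.91 for Ccnd1, 7.61 for Ptpro, 8.10 for Ehd3, 12.36 for Lyz1, 6.29 for Adgre1, 9.11 for D630023F18Rik, 10.72 for Sostdc1 and 10.16 for Fam107a. CLP mouse 35 was high for Acta2 at 10.52.

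Among MSC kidneys, mouse 16 was high for Socs3 at 10.53 and Tnc at 7.94 and low for Wnk1 at 10.10. Mouse 61 was low for Ccl11 at 5.91, Map3k8 at 6.66 and Casp4 at 7.31. Among sham kidneys, mouse 76 had 6.77 for Actg2 and 10.26 for Alas2, both high, and 7.85 for Ehd3, low. Mouse 78 was high for Apoa2 at 15.32 and low for Gclc at 5.59. Low values were also seen for Sdcbp2 in mouse 21 at 5.35, Col1a1 in mouse 22 at 5.89 and Fpr2 in mouse 77 at 5.08.

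The kidney effect of the infusion differed from the mean effect in liver, lung and heart, by limma's adjusted p, at 12 probes. The departures were 1.53 for Slc19a1, 0.88 for Ddah1, 0.80 for ILMN_2688190, 0.79 for Gimap5, 0.68 for Scly and 0.57 for Kat2a. They were -1.15 for Ccng2, -1.11 for Pkig, -1.06 for Vsig2, -0.88 for ILMN_1247541, -0.70 for Celf2 and -0.66 for ILMN_1251160.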

How the results depend on the processing

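The MSC against CLP count was 2 probes and became 1 with only the MSC and CLP kidneys fitted (1732 at an unadjusted p below 0.05), and 2557 with array weights. It was 5, all higher, without the 3 MSC kidneys high in Cyp11a1, and 2939 without CLP mouse 107 and sham mouse 78; both steps were chosen after seeing the data. Leaving out 1 kidney gave 1 to 3036, and 1 to 12 apart from mouse 107, with 12 without CLP mouse 34 and 6 without MSC mouse 16. Acta2 passed in 23 of 24 alternatives (-1.41 to -1.24, adjusted p 0.000333 to 0.0534). Actg2 passed in 13 of 24 (-2.22 to -1.79, adjusted p 0.000695 to 0.222). It missed with only the MSC and CLP kidneys (-1.99, adjusted p = 0.222) and without the 3 MSC kidneys (-2.16), where Acta2 had -1.38. No named gene reversed. The CLP against sham count of 3619 was 6958 in the value table, which tests more probes, and 2801 to 4725 without 1 kidney. The MSC against sham count of 577 was 1689 with array weights, 319 with no filter, 1107 in the value table, 30 without the 3 MSC kidneys, 991 without mice 107 and 78, and 260 to 1280 without 1 kidney, the highest without mouse 107. The organ count of 12 was 0 with only MSC and CLP mice (1210 at an unadjusted p below 0.05) and 0 without the 3 MSC kidneys (1048 unadjusted). It was 551 with array weights, 7 with trend and robust settings, 1 with no filter, 2 in the value table, 1031 without mice 107 and 78, and 1 to 997 without 1 kidney. Apart from what fewer samples or other probes bring, the cause was not tested. No paired analysis was possible because the arms share no mouse number.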
